A study of Mus musculus with 100 samples.

Results

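The genes of mouse chromosome 15 were examined in the male KSR-iPSC line M KSR5, whose chromosome 15 genes stood above those of the other lines in expression and in the share of maternal reads. The 373 members were chosen by their position on chromosome 15 and by a level: a deposited log2 RPM (reads scaled to the size of the library) above 2 in all 12 KSR-iPSC libraries. They were 373 of the 878 chromosome 15 genes in the table, of 9172 genes of any chromosome that passed this level, and of 25965 genes in all. The other 505 chromosome 15 genes were below it in at least 1 library. The chromosome was picked for its difference in M KSR5, so the values of M KSR5 against the other lines are a description without a test.

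RNA of 18 libraries was sequenced, 3 biological replicates in each of 6 groups. F KSR2 and F KSR4 are female and M KSR3 and M KSR5 male iPSC lines, each grown from 1 picked colony in medium with knockout serum replacement (KSR) and LIF. They were reprogrammed with doxycycline from fibroblasts (MEFs) of F1 hybrid embryos with an i4F-BL6 mother and a CAST father, and all 4 lines carry its inducible cassette of Oct4, Sox2, Klf4 and c-Myc. The female lines come from 1 embryo, which confounds sex with embryo. Female MEFs are the parental cells of the female lines, and TX 2i ESCs are a female BL6 x CAST ESC line kept in 2i medium. RNA of male MEFs was not analysed here. According to the study's text, the lines were analysed after a long expansion without doxycycline and over a few passages that followed. Which of these passages each M KSR5 replicate came from is not given in the sources used here, so the spread between them may hold culture time as well as technical variation.

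Reads that carry a strain-specific SNP were assigned by the authors to the maternal BL6 or the paternal CAST genome. In the male lines, which have a maternal X only, 99.6 to 99.9% of allelic reads on X were BL6. Gene reads numbered 13183036 to 17921280 in a library. The members held 550796 to 938948 of them, with 85734 to 155581 allelic reads, which gave 95% Wilson intervals of 0.474 to 0.669 percentage points in width for the pooled maternal share. These intervals cover counting error only. The 10 pluripotency markers were detected in every pluripotent library, with a median log2 level of 8.43 to 9.07.

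Each autosome is normally present as 1 maternal and 1 paternal copy, and most of its genes are read from both. A change in the number of copies of a chromosome shifts most of its genes by a like factor, and when the added copy comes from 1 parent it shifts the allelic shares with them. Such gains are known from cultured pluripotent cells, where they can spread through a culture when the cells that carry them grow faster. As a point of reference, 3 equally active copies in place of 2 give a log2 difference of 0.58, and 2 maternal copies beside 1 paternal give a maternal share of 66.7%. Copy number in DNA was not measured here, and in bulk RNA a small shift in every cell cannot be told apart from a larger one in some of the cells. The paper counted metaphase chromosomes in M KSR5, among other lines, and reported a normal karyotype for its KSR-iPSCs. It called a karyotype normal when the usual chromosome number was found in most spreads counted.

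Promoter sequence is shown for 3 members that lie far apart and differ in kind: Lifr, the LIF receptor, near the centromeric end; Slc38a4, an imprinted amino acid transporter; and Cbx5, which encodes the heterochromatin protein HP1 alpha, near the distal end. The 250 bases before the RefSeq start (GRCm38.p6) are given 5′ to 3′ on the strand of the gene, with CpG dinucleotides in capitals. Lifr (chr15:7129322-7129571, plus strand) had 43 CpG, Slc38a4 (chr15:97055957-97056206, minus strand) 3, and Cbx5 (chr15:103239853-103240102, minus strand) 22, beside a median of 6 over the 32851 promoters of the table, of which 92.1% held at least 1 CpG, the only motif searched, which reads the same on both strands. A promoter was found under the same symbol for 197 of the 373 members, or 52.8%, too few for any comparison over the members.
Lifr: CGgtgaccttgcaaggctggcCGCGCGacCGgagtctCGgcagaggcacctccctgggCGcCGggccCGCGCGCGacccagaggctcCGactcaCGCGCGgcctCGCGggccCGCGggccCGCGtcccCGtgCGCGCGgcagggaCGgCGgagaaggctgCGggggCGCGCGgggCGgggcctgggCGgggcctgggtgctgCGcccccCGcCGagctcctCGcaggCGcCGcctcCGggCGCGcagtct
Slc38a4: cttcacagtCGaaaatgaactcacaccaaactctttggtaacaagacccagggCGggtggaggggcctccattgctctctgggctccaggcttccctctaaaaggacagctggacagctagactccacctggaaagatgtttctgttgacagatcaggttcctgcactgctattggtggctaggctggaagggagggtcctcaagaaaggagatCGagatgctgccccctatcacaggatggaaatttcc
Cbx5: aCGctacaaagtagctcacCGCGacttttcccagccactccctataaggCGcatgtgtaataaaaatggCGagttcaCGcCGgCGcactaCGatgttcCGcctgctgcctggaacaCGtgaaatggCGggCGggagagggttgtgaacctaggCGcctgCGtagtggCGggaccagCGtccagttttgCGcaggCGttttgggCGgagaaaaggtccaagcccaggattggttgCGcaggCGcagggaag

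In M KSR5 the chromosome as a whole stood higher, clearly in replicates 1 and 2 and less in replicate 3. Expression was taken per gene as the log2 difference from the mean of F KSR2, F KSR4 and M KSR3, relative to the median of all autosomal genes at the same level. The median of the members was 0.48 in replicate 1, 0.46 in replicate 2 and 0.15 in replicate 3. In the 9 libraries of the other lines it lay between -0.08 and 0.05, with a median of -0.01. All 3 libraries of M KSR5 were thus outside the range of the other 9, with replicate 3 nearest to it. TX 2i ESCs had -0.03, -0.01 and -0.05, and female MEFs -0.03, -0.01 and 0.05. Reads without a SNP, which played no part in the allelic calls, gave 0.48, 0.48 and 0.15 for M KSR5. They are most of the reads behind the values above, since allelic reads were 17.7 to 19.9% of gene reads. Without the centring, the values were 0.56, 0.50 and 0.22, since the median of all autosomal genes was itself 0.08, 0.04 and 0.07 above the other lines.

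The pooled maternal share moved in the same order. It was 65.1% in replicate 1 (64.9 to 65.4%), 65.1% in replicate 2 (64.9 to 65.3%) and 56.0% in replicate 3 (55.7 to 56.3%). The other 9 KSR-iPSC libraries lay between 49.9 and 52.0%, with a mean of 51.3% ± 0.586 (SD, n = 9). Replicate 3 therefore stood above every other line and below the other M KSR5 libraries, whose own intervals overlapped. Its difference from their mean was -9.09 percentage points. The chromosome 15 genes below the level, which the choice of members left out, had shares of 63.9, 64.7 and 54.4% on 3592, 3630 and 3203 allelic reads.

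**Figure D1:**
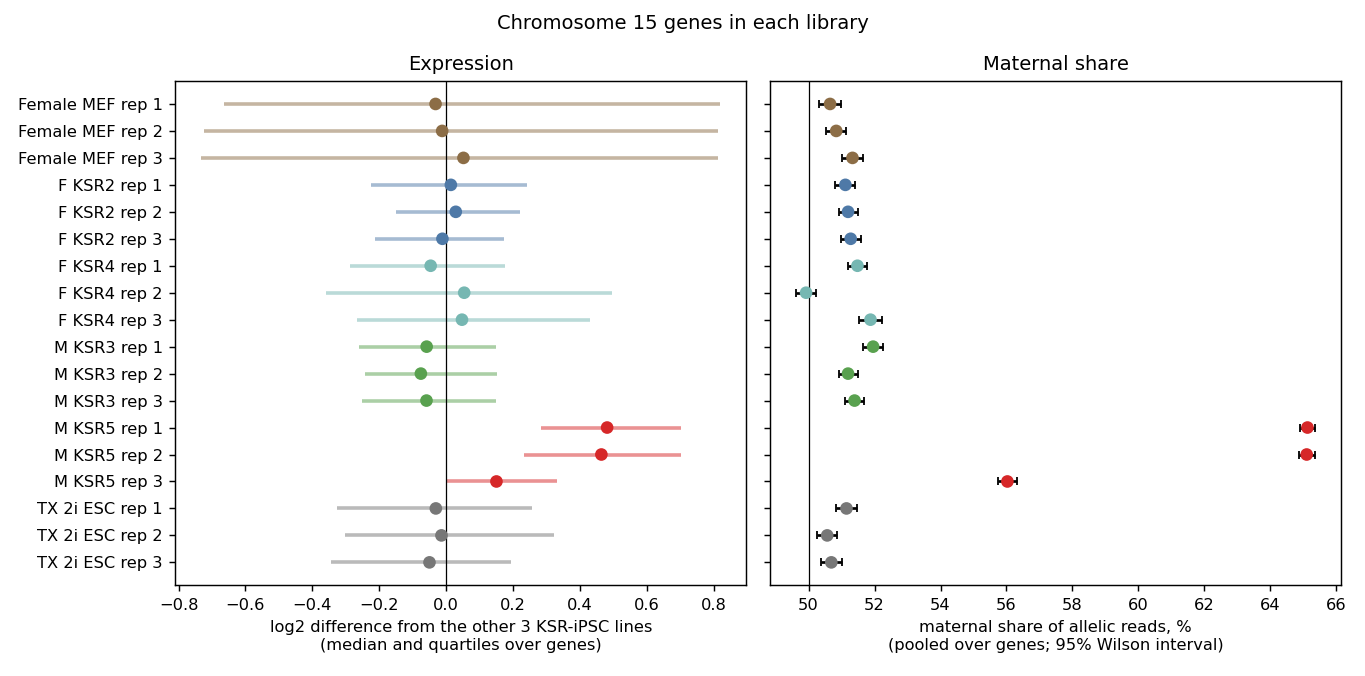
Left, log2 difference of 373 chromosome 15 genes from the mean of F KSR2, F KSR4 and M KSR3 in each of 18 libraries (dot, median; line, quartiles), relative to all autosomal genes. Right, maternal share of allelic reads pooled over the same genes, in percent, with 95% Wilson intervals. The M KSR5 libraries stand apart in both, replicates 1 and 2 at 0.48 and 0.46 with 65.1%, and replicate 3 at 0.15 with 56.0%.

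TX 2i ESCs and female MEFs, which took no part in choosing the members, were compared with the 9 libraries of the other 3 lines. The chromosome 15 maternal share was 50.8% ± 0.308 (SD, n = 3) in TX 2i ESCs, a difference of -0.468 percentage points (exact two-sided permutation test, p = 0.255, adjusted p = 0.409 over 2 comparisons). In female MEFs it was 50.9% ± 0.351 (SD, n = 3), a difference of -0.328 points (exact permutation p = 0.409, adjusted p = 0.409). Without F KSR4 replicate 2, the lowest of the 9 libraries at 49.9%, the difference of TX 2i ESCs was -0.636 points, with an unadjusted exact permutation p of 0.0242. The permutation took each library as 1 unit, though the 9 libraries are 3 replicates of each of 3 lines. Its p values hence cover the spread between libraries and not that between lines. A maternal share near 51% was thus measured in the parental female MEFs, in an independent ESC line and in the other 3 iPSC lines.

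Reads of each allele were then taken apart. Over the 251 members with at least 10 reads of both alleles in all 12 libraries, the median log2 difference of maternal reads from the other lines was 0.93 in replicate 1, 0.85 in replicate 2 and 0.32 in replicate 3. For paternal reads it was 0.02, -0.01 and 0.01. Maternal reads stood higher in 98.8, 97.6 and 84.5% of these genes, and paternal reads in 53.8, 47.4 and 52.2%. In the other 9 libraries the medians ran from -0.11 to 0.08 for maternal and from -0.03 to 0.08 for paternal reads. The paternal reads of M KSR5 were thus inside the range of the other lines in all 3 replicates, and the maternal reads outside it in all 3.

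**Figure D2:**
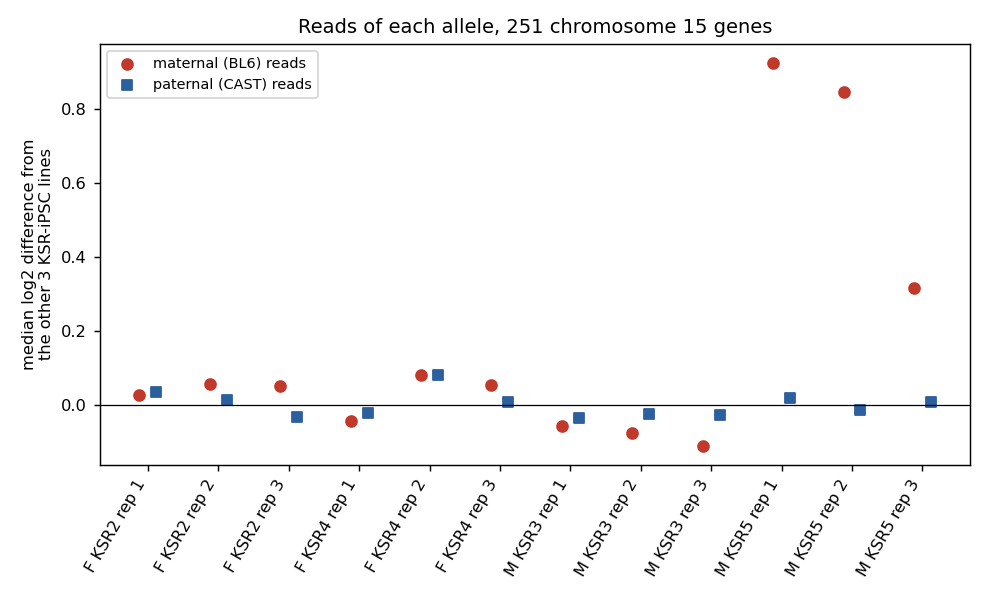
Median log2 difference of maternal (BL6, circles) and paternal (CAST, squares) reads from the average of F KSR2, F KSR4 and M KSR3 over 251 chromosome 15 genes, in the 12 KSR-iPSC libraries. The maternal values of M KSR5 are 0.93, 0.85 and 0.32, and its paternal values stay between -0.01 and 0.02.

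Gene by gene the shift was broad rather than carried by a few members. Of the 373 members, 339 had a difference above 0 in replicate 1, 335 in replicate 2 and 278 in replicate 3, or 90.9, 89.8 and 74.5%. In the other 9 libraries 38.6 to 56.0% did so. In replicate 1, 156 members stood between 0 and 0.5, 156 between 0.5 and 1 and 27 above 1, and 0 fell below -1. In replicate 3, 236 stood between 0 and 0.5, 38 between 0.5 and 1 and 4 above 1. When the members were split into 4 classes of like size by their level in the other lines, the median difference was 0.59, 0.40, 0.47 and 0.48 in replicate 1 from the lowest to the highest class, and 0.24, 0.14, 0.15 and 0.14 in replicate 3. The maternal share of the classes was 64.8 to 66.1% in replicate 1 and 55.8 to 56.8% in replicate 3, beside 50.8 to 52.5% in the other lines, so every class showed it.

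In 142 of 373 members (38.1%) the log2 level of replicates 1 and 2 was above all 9 other libraries, beside 5.03% of all 9172 genes, the members included. All 3 libraries were above all 9 others in 33 members (8.85%), beside 0.959% of all genes, and below them in 0 members, beside 0.458%. The maternal share could be set for 281 members with at least 20 allelic reads in all 12 libraries. Replicates 1 and 2 were above all 9 others in 193 of these (68.7%), beside 4.27% of 7312 autosomal genes, the members included. All 3 libraries were above in 87 (31.0%), beside 1.75%. Of 7031 genes of the other autosomes these shares were 1.69 and 0.583%. All 3 libraries were below in 0 members, beside 0.93%. Since chromosome 15 was chosen on this contrast, these counts show how the shift was spread over its genes and nothing more.

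The shift ran along the whole chromosome. The members began at base 3268547 and ended at base 103537992 of a chromosome of 104043685 bases (GRCm38), and 11 windows of 10 Mb held 6 to 88 of them. The median difference was above 0 in all 11 windows in each M KSR5 library. It ran from 0.31 to 0.54 in replicate 1, from 0.27 to 0.60 in replicate 2 and from 0.04 to 0.32 in replicate 3. It was above all 9 libraries of the other lines in 11, 9 and 5 of the 11 windows, so replicate 3 overlapped with them in expression in the others. The maternal share minus the mean of the other lines was 9.60 to 17.6 percentage points in replicate 1, 11.3 to 16.4 in replicate 2 and 2.33 to 7.37 in replicate 3. In replicates 1 and 2 the share was above all 9 other libraries in 11 of 11 windows, and in replicate 3 in 10 of 11. The exception was the window from 60 to 70 Mb, with 7 members and 733 allelic reads in replicate 3, where its share was 61.7% and the other libraries ran from 55.5 to 64.6%.

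**Figure D3:**
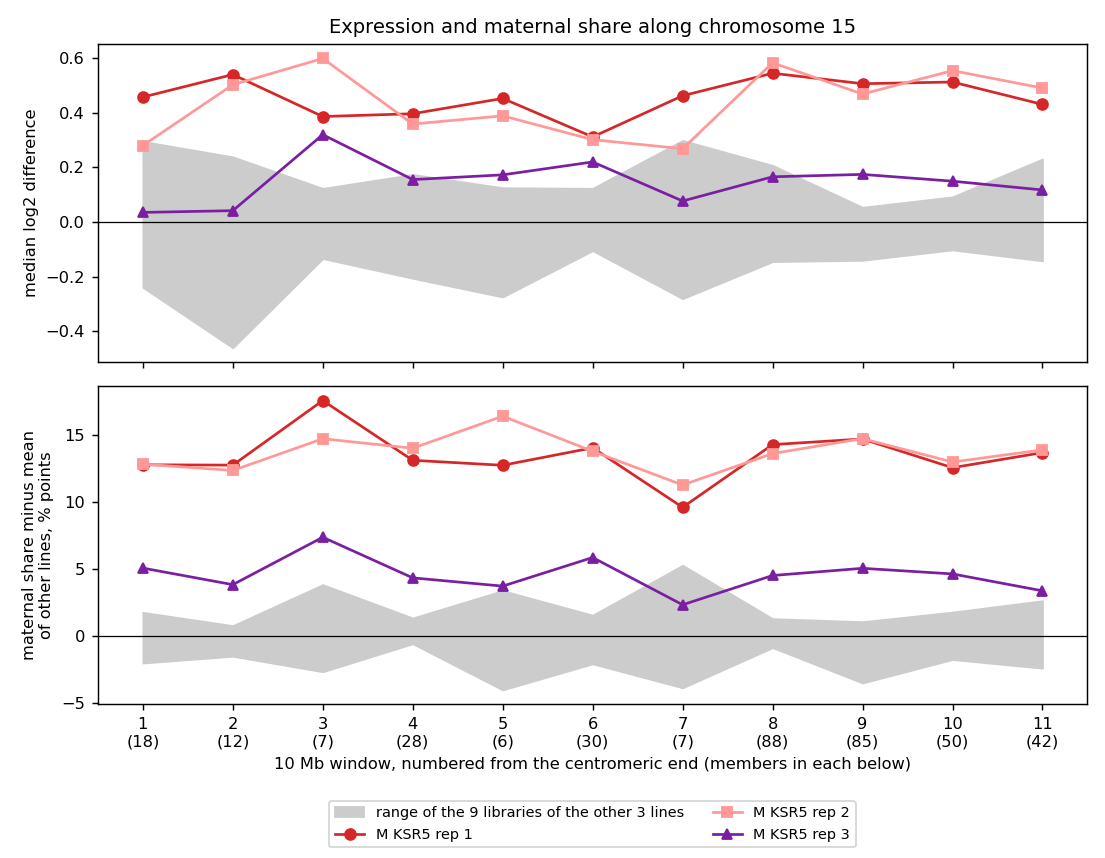
Median log2 difference (top) and maternal share minus the mean of the other 3 lines in percentage points (bottom) in 11 windows of 10 Mb along chromosome 15, for the 3 M KSR5 libraries, with the number of members under each window. The band spans the 9 libraries of the other lines. M KSR5 replicates 1 and 2 lie above the band of the maternal share in 11 of 11 windows, and replicate 3 in 10.

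A boundary was sought as the 1 split of the members, in order of start, that left the least squared residuals. For the mean difference of M KSR5 it fell at 74.5 Mb and explained 2.50% of the variance between members, with medians of 0.31 before and 0.40 after it. In replicate 2 the same split gave 0.35 and 0.53 and explained 3.64%, while replicate 3 alone was split at 79.4 Mb, with 0.15 on both sides. For the maternal share it fell at 78.9 Mb and explained 0.463%, with medians of 10.8 and 10.3 points above the other lines. Both sides of either split thus stood above the other lines, by more on the distal side in the expression of replicate 2. The M KSR5 libraries differed in the size of the shift, and in each the median difference was above 0 in all 11 windows.

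Chromosome 15 was set beside the other 18 autosomes of M KSR5. Their median log2 differences ran from -0.17 to 0.05 in replicate 1, from -0.20 to 0.07 in replicate 2 and from -0.23 to 0.10 in replicate 3. Their maternal shares ran from 49.0 to 54.2%, from 49.7 to 54.0% and from 50.4 to 54.2%. Chromosome 15 was therefore the highest autosome in both measures in each library. Chromosome 1 had the lowest difference in replicates 1 and 2 and chromosome 8 in replicate 3, but on both some lines of the reference stood high. On chromosome 1 M KSR3 had 0.31 to 0.33 and a maternal share of 67.8 to 68.0%, and M KSR5, with -0.17, -0.20 and -0.14, was inside the range of F KSR2 and F KSR4, -0.25 to -0.10. On chromosome 8 M KSR3 had 0.17 to 0.18 with shares of 65.0 to 65.6%, and F KSR4 had 0.17, 0.16 and -0.07 with 65.9, 65.8 and 56.4%. The -0.23 of M KSR5 replicate 3 was near F KSR2, -0.30 to -0.26, and female MEFs, -0.28 to -0.23, while replicates 1 and 2 stood above these at 0.03 and 0.05.

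**Figure D4:**
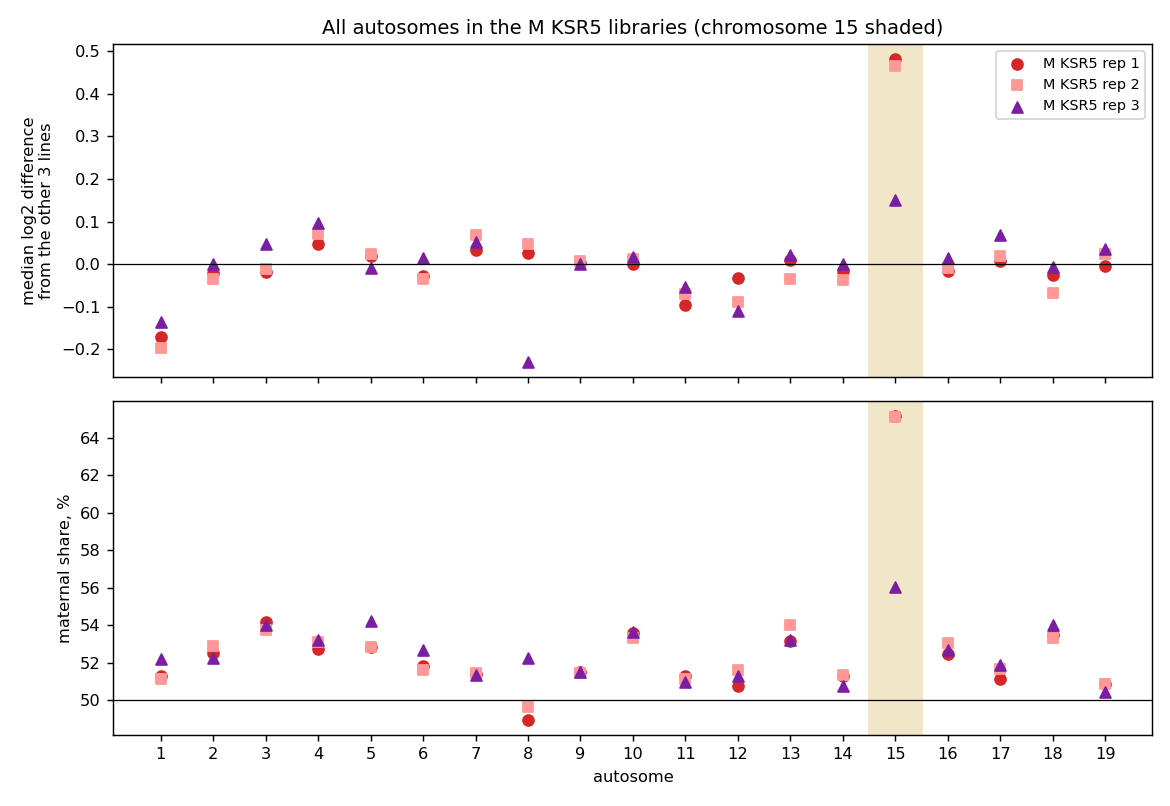
Median log2 difference from the other 3 KSR-iPSC lines (top) and maternal share in percent (bottom) of the 19 autosomes in the 3 M KSR5 libraries. Chromosome 15 (shaded) stands above the other 18 in every library, and chromosome 8 is at 0.03, 0.05 and -0.23 in replicates 1, 2 and 3, on a scale whose reference holds M KSR3 and F KSR4, both with libraries at 0.17 there.

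Replicate 3 differed from replicates 1 and 2 in more than chromosome 15. Relative to their mean, the median of the members was -0.30 on the log2 scale, and 302 of 373 (81.0%) were below 0. Chromosome 8, with 534 genes, had a median of -0.28, with a maternal share of 52.2% in replicate 3 beside 49.0 and 49.7% in replicates 1 and 2. Relative to F KSR2 and female MEFs, replicates 1 and 2 were the ones that stood apart on chromosome 8 in expression. The maternal shares of F KSR2 and female MEFs there were 50.6 to 51.8%, with replicates 1 and 2 below this range and replicate 3 just above it. The other 17 autosomes lay between -0.03 and 0.08. Replicate 3 also had the highest summed level of the 15 fibroblast markers among the KSR-iPSC libraries, 242 RPM or 0.721% of the mean of female MEFs, with 0 markers at 0 reads. In the other 11 KSR-iPSC libraries this sum was 40.7 to 115 RPM, or 0.121 to 0.343%, and 2 markers were at 0 reads in M KSR5 replicates 1 and 2. The pluripotency markers of replicate 3 had a median log2 level of 9.05, beside 9.01 and 8.43. The part of these markers in the lower value of chromosome 15 was not tested. The 3 libraries cannot be told apart as to passage or harvest from the labels.

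Among genes of growth and pluripotency signalling, 10 of the 12 listed genes were members, with a median difference of 0.57, 0.26 and 0.19 in replicates 1, 2 and 3, beside -0.23 to 0.29 in the other lines. Both replicates 1 and 2 were above 0 in 8 of the 10, beside 321 of all 373 members. Their pooled maternal shares of 67.5, 67.3 and 57.1% were above the 52.0 to 56.6% of the other lines. Rarg, a retinoic acid receptor (bases 102234938 to 102257517), had log2 levels of 8.21, 8.53 and 7.77, beside 6.05 to 7.95 in the other lines. Replicates 1 and 2 were above all 9 and replicate 3 inside their range. Its maternal shares were 70.0, 69.3 and 60.0%, and its mean difference ranked 5 among the members. Lifr, through which LIF supports self-renewal (bases 7129559 to 7197489), had levels of 6.62, 6.36 and 5.89, beside 4.86 to 6.27. Its shares of 70.2, 70.1 and 62.6% overlapped with the wide range of the other lines, 55.5 to 73.1%. Atf4, a transcription factor of the amino acid stress response, went in another order, with differences of 0.00, 0.30 and 0.62, yet its shares were 64.6, 64.8 and 55.0%, beside 48.4 to 53.4%. Pim3, a serine/threonine kinase, had differences of -0.03, -0.24 and 0.33 and shares of 61.8, 65.8 and 52.8%, beside 42.2 to 52.2%. In Atf4 and Pim3 the levels of the replicates did not follow the chromosome, while their allelic shares did.

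All 14 listed genes of chromosome segregation and DNA repair were members, with median differences of 0.63, 0.56 and 0.08, beside -0.11 to 0.11. Both replicates 1 and 2 stood above 0 in 14 of them, beside 321 of all 373 members. Rad21, the kleisin subunit of cohesin (bases 51962605 to 51991760), had levels of 9.23, 8.88 and 8.83, beside 7.99 to 8.97. Only replicate 1 was above all 9. The maternal share of Rad21 was 68.9, 68.0 and 62.3%, beside 52.4 to 56.95%, so all 3 libraries were above the others. Rangap1, the GTPase activating protein of Ran, had levels of 8.41, 8.38 and 7.90, beside 7.54 to 7.98. Gtse1, which acts on microtubules in the cell cycle, had 8.23, 8.21 and 7.91, beside 6.92 to 8.03. In both, the levels of replicates 1 and 2 were above all 9 other libraries and that of replicate 3 was not. Maternal shares of Rangap1 were 63.49, 69.7 and 58.3%, beside 49.7 to 63.48%. Those of Gtse1 were 63.9, 62.4 and 55.9%, beside 48.0 to 59.3%, so replicate 3 was inside the range in both genes. Of chromatin regulators, 9 of 11 were members, with median differences of 0.59, 0.49 and 0.08, beside -0.25 to 0.32, and 9 were above 0 in both replicates 1 and 2. Kmt2d, a histone methyltransferase, is among them under its older symbol Mll2. Cbx5 had levels of 8.93, 8.82 and 8.20, beside 7.63 to 8.56, and shares of 67.7, 68.7 and 62.8%, beside 50.0 to 62.4%. Cbx7, a Polycomb protein, had levels of 8.04, 7.98 and 7.47, beside 7.06 to 7.75. Ep300, a histone acetyltransferase, had levels of 7.78, 7.50 and 7.24, beside 5.89 to 7.48. For these 3 genes replicates 1 and 2 were above the other lines in level. The shares of Cbx7 were 61.3, 59.3 and 49.4%, beside 43.0 to 52.3%. Those of Ep300 were 59.9, 62.7 and 46.1%, beside 43.6 to 59.5%. In Cbx7 and Ep300 the share of replicate 3 was thus inside the range of the other lines.

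All 16 genes listed for translation and RNA were members, with median differences of 0.31, 0.42 and 0.15. Both replicates 1 and 2 were above 0 in 13 of them, beside 321 of all 373 members. In the other lines the median of this list ran from -0.20 to 0.60, so no M KSR5 library was outside their range in level. The pooled maternal shares of 63.4, 63.8 and 53.9% were outside it, beside 47.4 to 50.4%. The 5 members with the most allelic reads were among these genes. Eif3d and Eif3l, subunits of the initiation factor eIF3, had differences of 0.48, 0.62 and 0.09, and of 0.60, 0.74 and 0.44. The maternal share of Eif3d was 64.8, 63.3 and 54.3%, beside 44.7 to 50.5%, and that of Eif3l 73.2, 73.1 and 66.1%, beside 55.0 to 63.8%. Eif4b, a cofactor of the helicase eIF4A, had levels of 10.32, 10.00 and 9.55, beside 9.30 to 10.05, so that only replicate 1 was above all 9. Pabpc1, the cytoplasmic poly(A) binding protein, and the ribosomal protein genes Rpl8 and Rpl3 did not stand above the other lines in level. Pabpc1 had 11.77, 11.83 and 11.46, beside 11.24 to 12.40, and Rpl3 10.69, 10.57 and 10.74, beside 10.13 to 11.48. Their shares were above all 9 other libraries even so. Pabpc1 had 65.3, 65.2 and 53.4%, beside 49.3 to 52.5%, Rpl8 65.7, 67.2 and 56.5%, beside 50.8 to 52.7%, and Rpl3 51.5, 50.6 and 41.6%, beside 34.3 to 41.0%. Rpl3 thus began from a paternal bias in the other lines and came near equal shares in replicates 1 and 2. Reads of ribosomal protein and tubulin genes can be shared with near-identical copies elsewhere, so their values are uncertain to that extent.

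All 12 metabolic genes listed were members, with median differences of 0.53, 0.38 and 0.29, beside -0.12 to 0.12, and 11 were above 0 in both replicates 1 and 2. Slc38a2, a neutral amino acid transporter, had levels of 9.08, 9.03 and 8.95, beside 7.41 to 9.10, and shares of 63.2, 63.6 and 56.1%, beside 47.6 to 55.1%. Srebf2, a regulator of cholesterol synthesis, had 8.70, 8.09 and 8.06, beside 7.46 to 8.57. Of cytoskeleton and adhesion genes 11 of 12 were members, with median differences of 0.33, 0.36 and 0.29, none of them above the other lines, -0.24 to 0.37, and 8 were above 0 in both replicates 1 and 2. Their pooled shares were 71.7, 72.5 and 62.4%, beside 55.9 to 63.9%, so replicate 3 was inside the range of the other lines. Myh9, a nonmuscle myosin heavy chain, had shares of 68.4, 64.8 and 54.8%, beside 45.5 to 55.4%. The alpha tubulin genes Tuba1b and Tuba1a had shares of 79.9, 82.5 and 74.5%, beside 68.2 to 75.6%, and of 71.6, 72.6 and 66.0%, beside 51.7 to 66.0%. Over all members the medians were 0.48, 0.46 and 0.15, and 321 of 373 were above 0 in both replicates 1 and 2. Since chromosome 15 was chosen on this contrast, the counts of the lists describe how the shift was spread and nothing more.

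**Figure D5:**
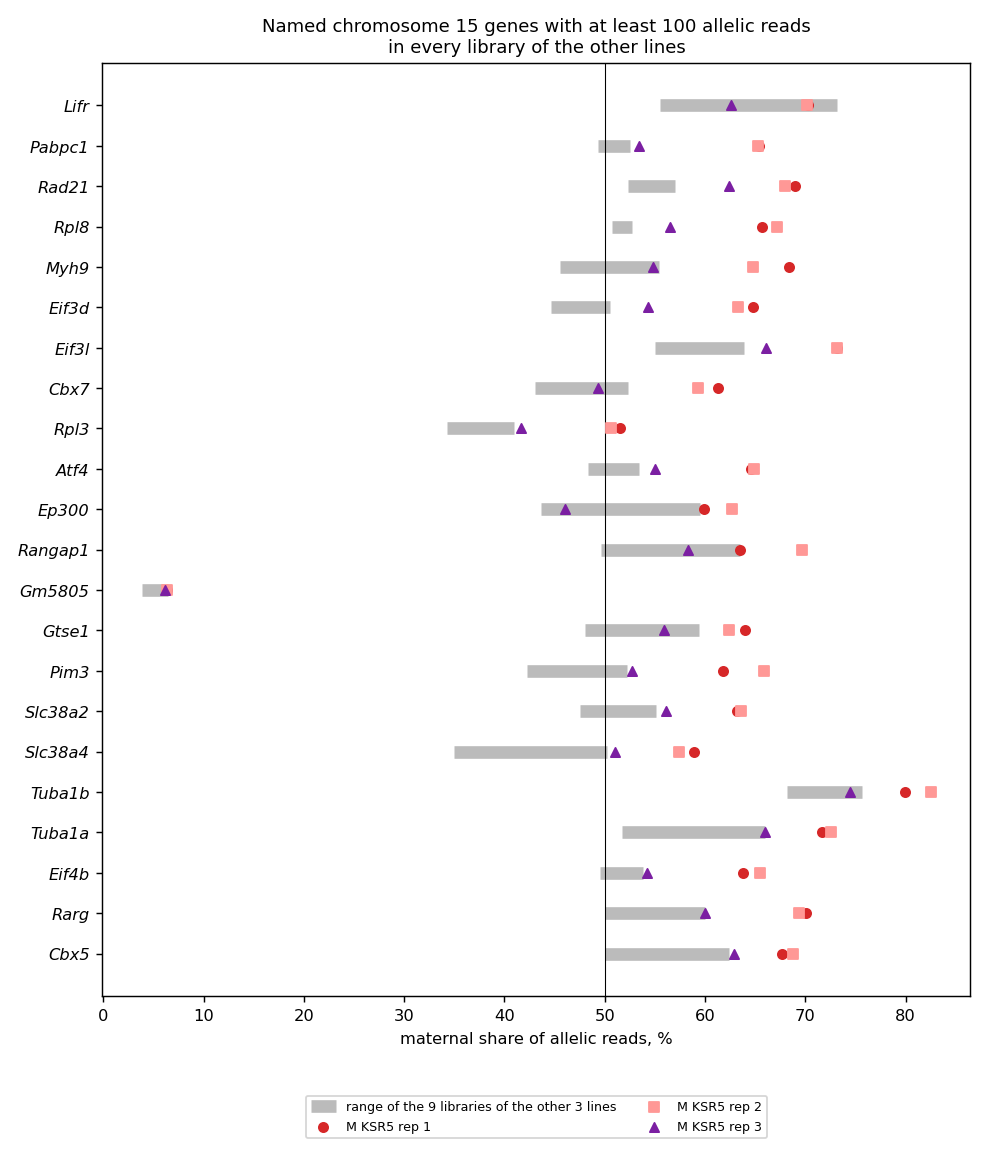
Maternal share of allelic reads, in percent, of 22 named chromosome 15 genes with at least 100 allelic reads in each library of the other 3 lines, in order along the chromosome. Bars span the 9 libraries of the other lines and points are the 3 M KSR5 libraries. Replicates 1 and 2 lie above the bar in 20 genes and all 3 libraries in 13, and replicate 3 lies below replicates 1 and 2 in 22.

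Of the 5 imprinted loci listed, 3 were members. Slc38a4 is read from the paternal allele in many tissues, and in female MEFs its maternal shares were 1.74, 0.993 and 1.17%. In M KSR5 they were 58.9% of 1829 allelic reads in replicate 1, 57.4% of 1433 in replicate 2 and 51.0% of 1342 in replicate 3. The other iPSC libraries had 35.0 to 50.2% and TX 2i ESCs 46.3 to 48.7%. Slc38a4 was thus read from both alleles in all pluripotent groups, with M KSR5 above the other lines by the same order of libraries as the chromosome. Its levels of 8.42, 8.02 and 8.03 overlapped with the other lines, 7.59 to 8.28, in replicates 2 and 3. Trappc9, of a trafficking complex, had shares of 67.4, 62.3 and 62.3%, beside 49.4 to 63.7%. Ago2, an Argonaute protein of miRNA silencing, is in the table under its older symbol Eif2c2 (bases 73098592 to 73184840). Its levels of 7.32, 6.87 and 6.37 overlapped with the other lines, 5.78 to 7.51, and its shares of 68.8, 69.0 and 67.6%, on 452, 271 and 179 allelic reads, were above all 9 other libraries, 45.7 to 61.0%. Unlike the chromosome as a whole, replicate 3 was close to replicates 1 and 2 in the share of Eif2c2. Kcnk9 was below the level, and Peg13 was not found under its symbol or an older one.

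Myc was no member, because its level was 1.32 in F KSR4 replicate 2. In M KSR5 it had 6.55, 7.19 and 7.21, and in the other libraries 1.32 to 7.22, so the levels overlapped. Reads of the c-Myc in the cassette, if any, cannot be told apart from those of Myc in the table. Its maternal shares were 52.1% of 121 allelic reads, 56.0% of 168 and 52.6% of 171. The other libraries with allelic reads had 18.8 to 40.3%. In Myc replicate 3 was not below replicates 1 and 2 in level, and its share lay between theirs.

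The members differed among themselves. The largest mean differences of M KSR5, by which they were picked, belonged to Naprt1, an enzyme of NAD synthesis, with 1.46, 1.66 and 0.76, Sepp1, the selenium carrier selenoprotein P, with 1.56, 1.03 and 0.95, and Itgb7, an integrin subunit, with 1.24, 1.40 and 0.28. They were followed by Pde1b, a phosphodiesterase, with 1.57, 1.34 and -0.08, and by Rarg. Replicate 3 was the lowest of the 3 in all 5, and its level was inside the range of the other lines in all 5. For Sepp1 replicate 2 was inside as well, with levels of 5.07, 4.50 and 4.45, beside 2.39 to 4.63. The lowest of the other lines there was M KSR3, at 2.39 to 2.84. The maternal shares of Sepp1, 65.4, 63.4 and 51.6%, were all inside the 32.9 to 69.7% of the other lines. The smallest belonged to Smc1b, Fam134b, Gm5805, 1700029P11Rik and Kdelr3. Smc1b, a meiotic cohesin subunit, had -0.02, 0.07 and -1.63, and Fam134b, a receptor of ER turnover, -0.45, -0.86 and -0.24. Gm5805 had -0.69, -0.62 and 0.03 and a maternal share of 6.32, 6.34 and 6.11%, beside 3.85 to 6.47%, so its reads were almost all assigned to CAST in every line. Kdelr3, a KDEL receptor, had -0.50, -0.53 and 0.16. The shares of Smc1b were 86.4, 75.6 and 60.0%, on 88, 90 and 30 allelic reads, beside a median of 59.7% in the other lines.

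Nearest to the level of 2, Fam116b, Letmd1 and Ppp1r1a were just inside, with lowest log2 values of 2.01, 2.01 and 2.02 among the 12 libraries, and Capsl, Dennd3 and Serhl just outside, with 1.99, 1.97 and 1.97. Mean differences of M KSR5 were 0.39, -0.21 and 0.78 for the first and -0.42, 0.11 and 0.18 for the second.

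The contrast of M KSR3 with the mean of F KSR2 and F KSR4 compared lines other than M KSR5. The M KSR5 libraries still entered the level that members had to pass and the variance of the fit. By limma 11 of 373 members (2.95%) were higher in M KSR3, beside 7.47% of all genes, and 12 (3.22%) were lower, beside 3.96%. All genes include chromosomes 1 and 11, where M KSR3 had median log2 differences of 0.31 to 0.33 and 0.18 to 0.21 from the mean of F KSR2, F KSR4 and M KSR3. On chromosome 8 M KSR3 had 0.17 to 0.18, F KSR2 -0.30 to -0.26, and F KSR4 0.17, 0.16 and -0.07. The fit was not centred on the autosomal genes. All genes also include X, in a contrast of a male line with female lines. The median of the members was 0.04 and that of all genes 0.11 on the log2 scale. Dab2, an endocytic adaptor, had the largest rise, 2.30 with an SE of 0.280 (limma adjusted p = 0.000432), and Grhl2, an epithelial transcription factor, the largest fall, -1.97 with an SE of 0.352 (limma adjusted p = 0.00372). Both were singled out after their values were seen. Their mean differences in M KSR5 were -0.06 and 0.56. Of the named members, Itgb7 was called higher (1.27, SE 0.283, limma adjusted p = 0.0111), and Sepp1 (-1.23), Pde1b (-1.16) and Ppp1r1a (-1.54) lower. In the functional lists and the imprinted loci 0 members were called in this contrast. A short second row of the symbol Eif2c2 (bases 73095844 to 73096684), which carries the ID of the neighbouring Chrac1 and is in no list, was called lower (-1.15, SE 0.313, limma adjusted p = 0.0293), and was also singled out after its value was seen. The long row of Eif2c2 had -0.55 with an SE of 0.312 (limma adjusted p = 0.281). The counts rest on single libraries: leaving out 1 library gave 3 to 22 members higher and 2 to 24 lower. The fewest came without M KSR3 replicate 2 and the most without F KSR4 replicate 1. Calls over all genes moved with them. Without M KSR3 replicate 2, 1.71% of all genes were higher and 1.30% lower. Without F KSR4 replicate 1 these shares were 12.8 and 5.80%.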

How the data were processed

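The authors trimmed reads of the 18 RNA-seq libraries with Trim Galore 0.6.1, aligned them to GRCm38 with HISAT2 2.1.0, quantified genes by strand in SeqMonk and deposited log2 RPM values for all reads, reads without an informative SNP and reads of each parental genome, without length correction. Whole reads were recovered from them: 99.97 to 100% of values per library came out whole with a tolerance of 0.05 read, and genes without reads were held at 0.9 read. The median squared difference between replicates was 2.89 to 60.2 times counting noise. The 82 IMPLICON samples were not analysed here. Symbols were used for identity: the ID beside them had the same symbol in 308 of 373 members, a symbol with the table's as a RefSeq synonym in 24, and another symbol in 38.

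Maternal share is the percentage of BL6 among BL6 and CAST reads. Genes at the level entered limma 3.58.1 (R 4.3.3) with an intensity trend, a mean per line and Benjamini-Hochberg adjustment, threshold 0.05. The fit was tried on simulated data with changes in M KSR5 only and 1 dispersion for all genes. The reported contrast of M KSR3 was not checked in this way. Shares were compared by exact permutation of libraries in scipy 1.17.1. Members and lists were chosen with earlier results of these data known. Named are the 3 most highly expressed members of each list, Myc, Lifr, Rad21, Slc38a4, Peg13 and Trappc9, the 5 largest and 5 smallest differences in M KSR5, the 5 members with most allelic reads, and 3 genes on either side of the level. Listed genes absent by symbol were sought by synonym and ID. Fits planned on M KSR5 against the other lines are not reported, since this contrast chose the chromosome. Values of 1 further gene so chosen are not reported here. Alternatives covered level, centring, reference, pseudocount, tool and each library left out.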

Additional observations from a re-analysis of the deposited data

How the results depend on the processing

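The median difference of M KSR5 was 0.37 as the mean of its 3 libraries, and its maternal share 62.1%. Both moved by less than the SD of those libraries under every alternative run. For the difference these were other levels, 1 added before the logarithm, no or other centring and other reference lines. For the share they were a median over members, all chromosome 15 genes, and 10 members left out. The SD of 0.186 and 5.25 points is a wide limit, since it holds the gap of replicate 3. In replicates 1 and 2 alone it was 0.0121 and 0.0169 points. Each library left out in turn gave shares of 60.6 to 65.1%, the highest without M KSR5 replicate 3. The boundary was not stable. For the log2 difference it moved from 74.5 Mb to 79.4 Mb in replicate 3 alone and to 59.6 Mb with a level of 0, and for the maternal share from 78.9 to 9.07 Mb in replicate 3 alone. The fall of replicate 3 was -0.31 with a level of 4, beside -0.30. The cause was not tested. Leaving out 1 library gave 3 to 22 members called higher and 2 to 24 lower in M KSR3. Over all genes 1.71 to 12.8% were then higher and 1.30 to 6.25% lower. Besides M KSR3 replicate 2 and F KSR4 replicate 1, the count of higher members moved by over 1.5 times without F KSR2 replicate 3 (7), F KSR4 replicate 2 (21) and M KSR3 replicates 1 and 3 (6 and 3), and that of lower members without M KSR3 replicates 1 and 3 (7 and 3). For the share of TX 2i ESCs the difference was -0.642 to -0.349 points, with an exact permutation p of 0.0242 without F KSR4 replicate 2 (-0.636), and for female MEFs -0.524 to -0.184.

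With the replicate number as a block 12 members were called higher and 14 lower in M KSR3, beside 7.61 and 4.35% of all genes. The labels do not say that a number marks a shared culture or harvest. Deviations of same-numbered libraries correlated at -0.31 to 0.57, over 0.1 in 8 of 18 pairs, with 6 of 6 pairs above 0 in replicate 3 (0.046 to 0.43), which leaves unsettled whether the numbers share a harvest.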
